A study of Mus musculus with 6 samples.

Results

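Zfp genes encode zinc finger proteins, whose fingers grip DNA or RNA. Many belong to the KRAB family, the largest family of transcriptional repressors in mammals: the fingers read a sequence, often in a retrotransposon, and the KRAB domain brings in Trim28 (KAP1), which recruits the histone methyltransferase Setdb1 and HP1 proteins to close the chromatin. The genes arose by repeated duplication and often lie side by side in arrays. The symbol also covers genes of other kinds, from activators to ubiquitin ligases and RNA-binding proteins. The members were protein-coding genes of RefSeq (GRCm38.p6, the assembly of mm10) named Zfp and a number, without Zfp36, with an accessible region within 1 kb of either end of the gene. Of 366 such genes 242 had 1 or more, 250 regions of the 24605 in the deposited count matrix. Each gene was represented by its main region, the one with the highest mean count. The 242 main regions were 237 distinct ones, because 5 served a pair of neighbouring Zfp genes each (Zfp398 and Zfp786, Zfp580 and Zfp784, Zfp646 and Zfp668, Zfp942 and Zfp943, Zfp758 and Zfp944).

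The palmitate group was wild-type mouse CD8+ T cells given 100 µM palmitate, a saturated fatty acid, for 48 hours in complete T cell medium (3 libraries). The control group was wild-type CD8+ T cells labelled as control, also with a time of 48 hours (3 libraries). Per the labels the cells came from pancreas, spleen and lymph nodes, and 50000 sorted cells went into each ATAC-seq library, in which the Tn5 transposase cuts open DNA so that reads in a region measure its accessibility. The groups rest on the treatment label and the title. The treatment protocol text is the same for all 6 samples, controls included, and names palmitate. The study asked how palmitate affects CD8+ T cell function. The sources used here do not give strain, age or the vehicle of the controls. They do not say whether replicates are separate animals or cultures either, so the p-values rest on a spread between libraries that may be technical.

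The libraries held 2614890 to 3089230 counts over all regions in palmitate and 2219136 to 2855574 in control, at a median of 46 to 62 per region. Gene ends of CD8 T cell markers were open for 7 of 7 genes (summed 313 to 370.0 CPM, counts scaled to the library size, in palmitate and 326 to 367 in control), and 0 of 5 B cell and 0 of 5 pancreas markers had a region. Of the myeloid markers 2 of 5 did (Spi1 and Itgam, summed up to 24.5 CPM in palmitate and 20.4 in control), and of the CD4 T cell markers Zbtb7b did and Cd4 did not (46.5 to 73.4 and 34.9 to 51.4 CPM). Their part in the results was not tested. Control 2 stood apart from the other controls (chi-square per degree of freedom 2.05 and 2.03 over regions, against 1.2 for controls 1 and 3). Pairs of palmitate libraries gave 1.19 to 1.48.

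The promoters of 5 members that the results turn on are printed from RefSeq (GRCm38.p6), 250 bases up to the annotated start, 5′ to 3′ on the gene strand. Where a gene had several annotated starts, the one nearest the centre of its main region was used. The stretch can therefore lie inside the gene span, as it does at Zfp639 and Zfp78 and in its last part at Zfp346. Zfp639, Zfp775 and Zfp346 were higher in palmitate under both scalings used below, Zfp267 was lower under both, and Zfp78 was the strongest member. Capitals mark motifs found on either strand. These are the GC box, spelled GGGCGG, which recurs in housekeeping promoters, the palindromic NRF1 motif, the TATA element, spelled TATAAA, and the box named for its letters CCAAT.
Zfp639 (chr3:32510342-32510591, + strand): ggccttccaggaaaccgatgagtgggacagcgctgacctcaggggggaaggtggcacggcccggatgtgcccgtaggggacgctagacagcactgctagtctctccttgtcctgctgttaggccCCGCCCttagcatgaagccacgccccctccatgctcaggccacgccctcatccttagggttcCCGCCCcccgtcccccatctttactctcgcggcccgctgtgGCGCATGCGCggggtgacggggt
Zfp775 (chr6:48601757-48602006, + strand): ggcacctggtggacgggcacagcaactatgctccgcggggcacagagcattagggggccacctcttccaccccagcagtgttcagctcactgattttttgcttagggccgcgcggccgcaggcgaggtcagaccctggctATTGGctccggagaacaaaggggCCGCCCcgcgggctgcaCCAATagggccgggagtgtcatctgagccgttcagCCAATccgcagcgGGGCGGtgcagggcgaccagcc
Zfp346 (chr13:55105072-55105321, + strand): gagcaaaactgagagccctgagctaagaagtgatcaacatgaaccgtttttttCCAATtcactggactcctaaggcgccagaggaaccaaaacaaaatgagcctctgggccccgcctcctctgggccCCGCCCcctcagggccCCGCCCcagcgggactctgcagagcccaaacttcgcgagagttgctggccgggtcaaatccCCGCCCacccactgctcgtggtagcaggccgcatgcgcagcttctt
Zfp267 (chr3:36150830-36151079, + strand): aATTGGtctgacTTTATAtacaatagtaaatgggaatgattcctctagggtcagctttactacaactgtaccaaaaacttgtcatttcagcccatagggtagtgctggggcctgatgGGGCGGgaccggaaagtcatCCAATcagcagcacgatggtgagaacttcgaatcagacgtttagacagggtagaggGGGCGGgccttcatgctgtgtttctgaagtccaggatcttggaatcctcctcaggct
Zfp78 (chr7:6363058-6363307, + strand): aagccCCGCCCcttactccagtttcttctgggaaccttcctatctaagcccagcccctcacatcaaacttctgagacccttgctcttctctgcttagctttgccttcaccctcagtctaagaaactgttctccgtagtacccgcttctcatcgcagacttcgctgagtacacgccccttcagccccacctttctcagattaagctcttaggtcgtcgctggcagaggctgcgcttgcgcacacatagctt
The 3 higher promoters hold 13 to 18 CpG dinucleotides each in these 250 bases, Zfp78 holds 10 and Zfp267 holds 6. GC boxes number 2 in Zfp639, Zfp775 and Zfp267, 3 in Zfp346 and 1 in Zfp78.

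Regions at Zfp gene ends were common and, at the median, weaker than those of other genes; neither difference was tested. A region lay within 1 kb of an end of 66.1% of Zfp genes (242 of 366), against 46.4% of other protein-coding genes (9872 of 21265). The median level of the main region was 37.7 CPM for Zfp genes, against 54.6 CPM for other genes. The members' median differed little between libraries, at 36.9, 37.0 and 36.4 CPM in palmitate libraries 1 to 3 and 36.4, 37.6 and 36.6 CPM in controls 1 to 3. Levels ran from 5.45 CPM at Zfp300 to 499.9 CPM at Zfp78. After Zfp78 the strongest were Zfp367 (356 CPM), Zfp687 (317), Zfp654 (275) and Zfp524 (271). The weakest after Zfp300 were Zfp773 (5.56 CPM), Zfp551 (6.12), Zfp72 (6.17) and Zfp11 (6.30). All 242 passed the count filter, and 208 main regions were listed in all 6 peak lists.

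The main region overlapped an annotated transcription start in 185 members, lay within 1 kb of one in 11 and at the other end of the gene in 10, and 36 members were not in the table of starts used. Of the 124 Zfp genes with no region at an end, 98 had an annotated start, and in 16 of these a region more than 1 kb inside the gene covered it. The strongest was that of Zfp787, at 182 ± 6.71 CPM in palmitate and 144 ± 24.2 CPM in control (SD, n = 3 each). Others were Zfp341, Zfp46 and Zfp821. By the rule these are not members, so a gene without a region at its ends can still have an open start.

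Genes with known roles fell on both sides of this line. Zfp57, which keeps imprinted loci methylated, Zfp143, an activator of promoters, and Zfp423, Zfp462 and Zfp521, regulators of lineage and chromatin, had no region at an end. Zfp809, which silences murine leukaemia proviruses, had 71.5 ± 0.433 CPM in palmitate and 63.1 ± 1.32 CPM in control (SD, n = 3 each). Zfp568, which silences a placental transcript of Igf2, had 22.5, 25.8 and 25.3 CPM in palmitate and 25.7, 23.6 and 25.5 CPM in control. Zfp335, needed for the development of naive T cells, had 80.4, 98.9 and 95.5 CPM in palmitate and 75.4, 82.9 and 93.8 CPM in control. The groups overlapped at Zfp568 and Zfp335 but not at Zfp809, and none of the 3 passed the edgeR test described next (adjusted p 0.949, 0.377 and 0.178 for Zfp568, Zfp335 and Zfp809).

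With palmitate 33 of the 242 main regions were higher and 5 lower, and 204 did not pass (edgeR quasi-likelihood test over all 24316 tested regions, TMM library factors, Benjamini-Hochberg false discovery rate of 0.05). Higher calls were thus 13.6% of members and lower calls 2.07%. Without control 3 or palmitate 1 the lower calls were 3, and DESeq2 called 22 higher and 1 lower. In the edgeR test with TMM and all libraries 28.2% of other genes' main regions were higher and 1.74% lower. Among all tested regions 12% were higher and 12.8% lower in that test. The median log2 fold change of palmitate over control was 0.07 for members, 0.16 for other genes' main regions and -0.05 for all tested regions. The 3 palmitate libraries all lay above the 3 controls at 52 members (21.5%) and all below at 17 (7.02%), against 39.3% and 5.43% of other genes' main regions. Among all tested regions these shares were 17.9% and 21.0%.

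Which members passed changed with the scaling. With trended offsets, which level the dependence of counts on region strength in every library, 3 members were higher (Zfp639, Zfp775 and Zfp346) and 3 lower (Zfp267, Zfp687 and Zfp180), beside 2.55% higher and 1.37% lower of other genes' main regions and 2.24% and 3.99% of all tested regions. The members' median log2 fold change was then 0.03, against 0.04 for other genes. With total counts as library sizes 12 members were higher and 13 lower and their median was -0.05. The median of all regions moved to -0.16 on that scale, so every direction is relative to the scaling. Over all regions, higher calls made up 48.5% of calls under TMM and 60.4% in the DESeq2 Wald test. The share was 35.9% under trended offsets, 35.8% under upper-quartile factors and 22.9% under total counts.

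**Figure D1:**
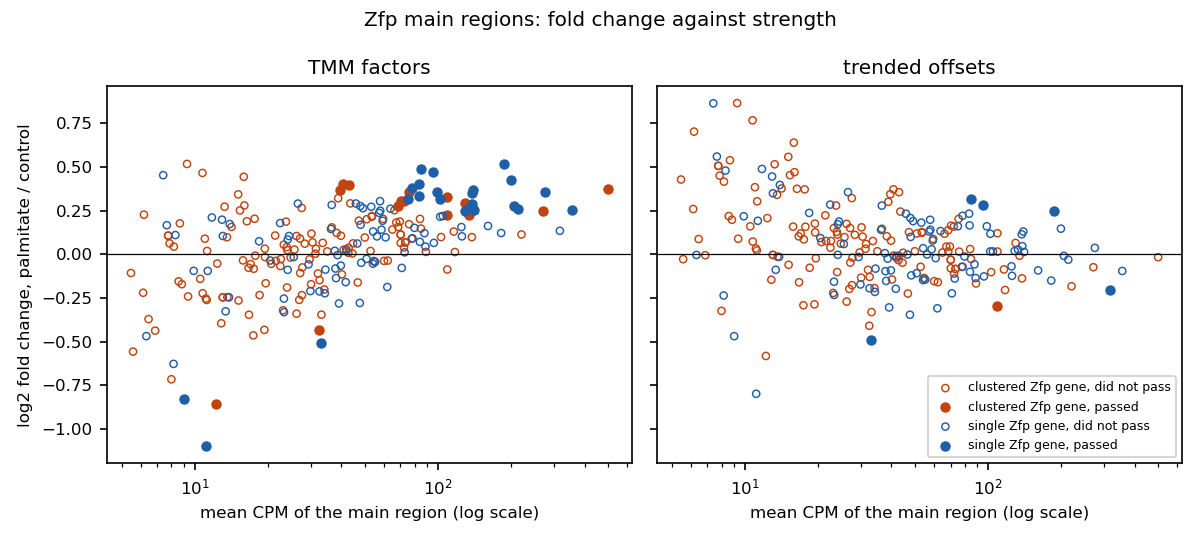
Log2 fold change (palmitate over control) of the 242 Zfp main regions against their mean CPM on a log axis, with TMM factors (left) and trended offsets (right); filled points passed a false discovery rate of 0.05. With TMM the 33 higher members sit at 39.6 CPM or more, and with trended offsets 6 members pass.

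With TMM the fold change followed the strength of the region, and with trended offsets the order turned. The members' median log2 fold change was -0.05 in the weakest and 0.26 in the strongest of the classes below with TMM, and 0.18 and -0.01 with trended offsets. All genes' main regions were divided by mean CPM into 5 classes of like size. In the weakest class (up to 22.1 CPM) 0 of 71 members were higher and 3 lower in edgeR, against 32 and 114 of 1941 other genes. In the strongest class 16 of 23 members (69.6%) were higher and 0 lower, against 1529 (76.5%) and 4 of 2000. In the middle class (41.9 to 68.6 CPM) 2 of 45 members (4.44%) and 15.2% of other genes were higher, with the same median log2 fold change of 0.14. In the fourth class 33.3% of members and 41.2% of other genes were higher. Members were concentrated in the weak classes, 29.3% in the weakest and 9.50% in the strongest.

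Of the 33 higher members, log2 fold changes ran from 0.22 to 0.52, all 33 were listed in all 6 peak lists, and the groups did not overlap at 32 (all but Zfp266). The main region was shared with the end of another gene in 10 of them, so it cannot be assigned to 1 gene. Zfp639 had the smallest p (chromosome 3, 32510191 to 32510793, over the gene start). Its level was 211, 233 and 214 CPM in palmitate libraries 1 to 3, against 167, 147 and 148 CPM in controls 1 to 3. All palmitate libraries lay above all controls, by 0.52 ± 0.07 on the log2 scale (SE, adjusted p in edgeR 2.73e-06), and by 0.25 with trended offsets (0.0176). Zfp346, also called JAZ, a protein that binds double-stranded RNA, had 95.4, 94.8 and 107 CPM in palmitate and 67.1, 73.2 and 71.1 CPM in control (chromosome 13, 55105136 to 55105641). Its log2 ratio was 0.49 ± 0.09 (SE, adjusted p in edgeR 0.000149; trended 0.32, 0.0283). Zfp775 had 111, 111 and 110.1 CPM in palmitate and 85.0, 83.8 and 72.1 CPM in control (chromosome 6, 48601726 to 48602250), which is 0.47 ± 0.09 on the log2 scale (SE, adjusted p in edgeR 0.000141; trended 0.28, 0.0433). These 3 are the members higher under both scalings, and their promoters are among those printed above.

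Zfp91, a ubiquitin ligase of the non-canonical NF-κB pathway, had 222, 230.0 and 232 CPM in palmitate and 175, 148 and 187 CPM in control (chromosome 19, 12795422 to 12796389, also at the end of Lpxn). The groups were apart, with 0.43 ± 0.07 on the log2 scale (SE, adjusted p in edgeR 5.82e-05), which did not pass with trended offsets (0.15; 0.17). Zfp318, needed for IgD expression in B cells, had 144, 169.9 and 156 CPM in palmitate and 127, 107 and 132 CPM in control (log2 fold change 0.37 ± 0.08 SE, adjusted p in edgeR 0.00111; trended 0.13, 0.319). Zfp281 and Zfp148, related factors that bind GC-rich promoters, rose together in this test. Zfp281 had 113 ± 8.12 CPM in palmitate and 90.8 ± 4.64 CPM in control, and Zfp148 had 93.5 ± 6.76 and 74.1 ± 2.70 CPM (SD, n = 3 each; log2 fold changes 0.32 and 0.34, edgeR adjusted p 0.00549 and 0.00595). With trended offsets neither passed (adjusted p 0.444 and 0.282), nor with total counts (0.0789 and 0.0688), and Zfp148 did not pass without palmitate 3 (0.0579).

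Zfp78, the strongest member, had 551, 572 and 569.8 CPM in palmitate and 445, 405 and 456 CPM in control (chromosome 7, 6362431 to 6363336). Its log2 ratio was 0.37 ± 0.06 (SE, adjusted p in edgeR 1.18e-05) with TMM and -0.02 (0.873) with trended offsets, so the direction rests on the scaling. The same held for Zfp367 (0.26 with TMM, -0.10 trended) and Zfp524 (0.24 and -0.07, shared with Fiz1). Neither passed in edgeR with total counts (adjusted p 0.0784 and 0.112). The others of the 10 higher members with the smallest p were Zfp654 (0.36, shared with Cggbp1), Zfp131 (0.35, a BTB-domain zinc finger protein, shared with Gm46390), Zfp740 (0.35) and Zfp189 (0.40, shared with Mrpl50). None of these 4 passed with trended offsets. A role in these cells is given here for none of Zfp639, Zfp775, Zfp78, Zfp654, Zfp740 and Zfp189.

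**Figure D2:**
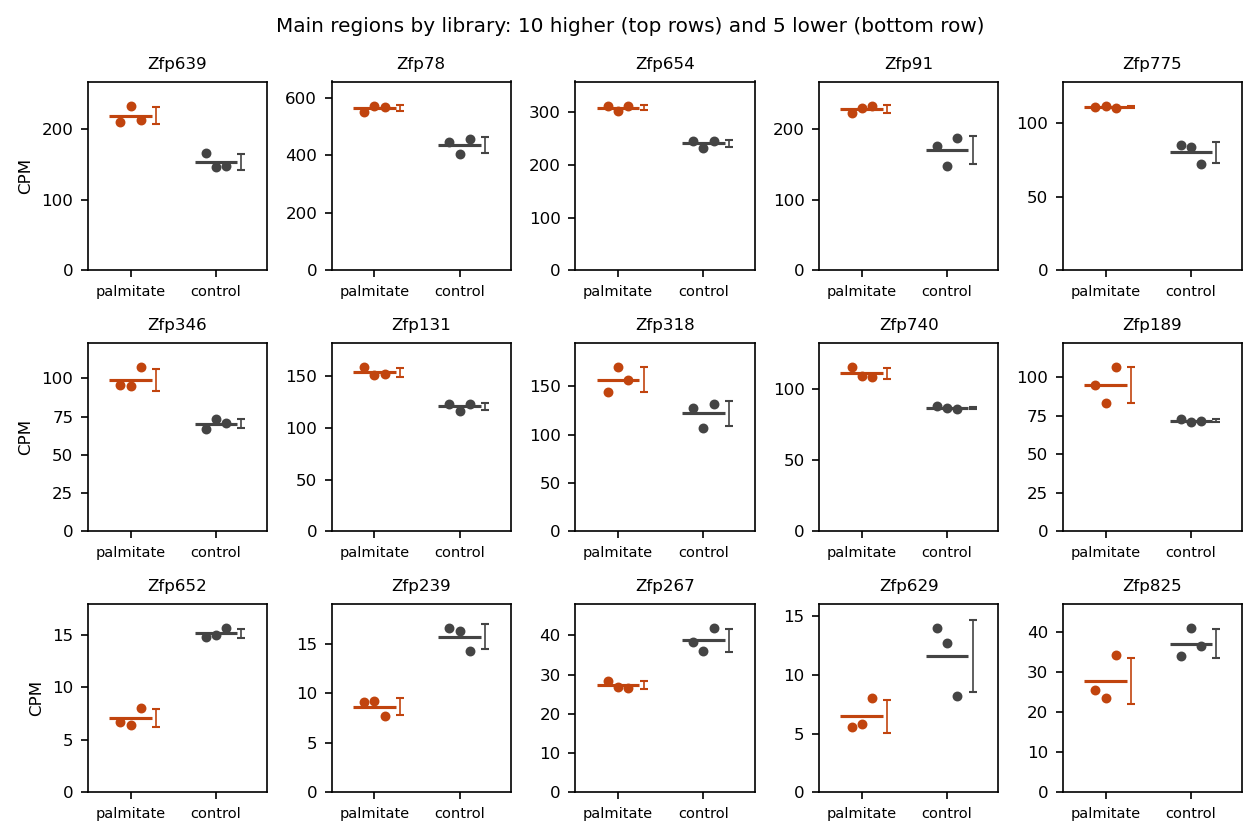
CPM of the main region in each palmitate and control library for the 10 higher members with the smallest p (upper rows) and the 5 lower members (bottom row); points are libraries, horizontal lines group means and bars the SD (n = 3). The groups do not overlap except at Zfp825, where palmitate library 3 (34.1 CPM) is above control 1 (34.0 CPM).

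The 5 lower members were weak regions, except that Zfp267 and Zfp825 lay near the family's median level. Zfp267 had 28.4, 26.8 and 26.5 CPM in palmitate and 38.3, 35.9 and 41.8 CPM in control (chromosome 3, 36150880 to 36151430, over the gene start). Every palmitate library lay below every control, with -0.51 ± 0.15 on the log2 scale (SE, adjusted p in edgeR 0.00932). It was the lower member that also passed with trended offsets (-0.49 ± 0.15 SE, 0.0363), and it did not pass without control 3 (adjusted p 0.0752) or in the DESeq2 Wald test (0.0841). Zfp652, a repressor that in human cells works with the corepressor CBFA2T3, had the largest fall, with 17, 19 and 21 raw counts in palmitate and 34, 45 and 46 in control (chromosome 11, 95748220 to 95748682). In CPM these were 7.07 ± 0.860 in palmitate and 15.1 ± 0.438 in control (SD, n = 3 each; log2 fold change -1.10 ± 0.25 SE, adjusted p in edgeR 0.00146; trended -0.80, 0.0504). The region lay within 1 kb of the annotated start but did not cover it.

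Zfp239 had 9.07, 9.17 and 7.67 CPM in palmitate and 16.6, 16.3 and 14.3 CPM in control (log2 fold change -0.85 ± 0.24 SE, adjusted p in edgeR 0.00816), with groups apart, and did not pass with trended offsets (0.143) or in the DESeq2 Wald test (0.0632). Zfp629, with a region of 261 bp at the gene's other end, had 14 to 21 raw counts in palmitate and 24 to 38 in control (log2 fold change -0.83 ± 0.29 SE, adjusted p in edgeR 0.0316). It did not pass without control 1, control 2, palmitate 1 or palmitate 2 (adjusted p 0.0697 to 0.123), with trended offsets (0.357) or in DESeq2 (0.155). Zfp825 had 25.6, 23.4 and 34.1 CPM in palmitate and 34.0, 40.9 and 36.4 CPM in control (log2 fold change -0.43 ± 0.16 SE, adjusted p in edgeR 0.0380). It did not pass without control 2, control 3, palmitate 1 or palmitate 2 (adjusted p 0.0961 to 0.211), with trended offsets (0.105) or in DESeq2 (0.201). The 2 members that were lower with trended offsets but not with TMM were Zfp687, a partner of the reader protein ZMYND8 in human cells, and Zfp180. Zfp687 had 345, 304 and 345 CPM in palmitate and 328, 285 and 294 CPM in control, so its levels overlapped and its log2 fold change was 0.13 with TMM and -0.20 (0.0318) with trended offsets. With TMM it was higher without control 1 (adjusted p 0.0464) or palmitate 2 (0.0478). Zfp180 had 103, 101 and 113 CPM in palmitate and 124, 110.1 and 103 CPM in control (-0.09 with TMM, edgeR adjusted p 0.479; -0.29 trended, 0.0251).

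Among 25 members listed for a known role, 19 had a region, 4 were higher (Zfp91, Zfp318, Zfp281 and Zfp148), 0 were lower and 15 did not pass in edgeR (shares of other genes' main regions 28.2% and 1.74%). Of those that did not pass, Zfp598, a ubiquitin ligase that senses collided ribosomes, and Zfp326, a splicing and elongation factor, had log2 fold changes of 0.24 and 0.28 (edgeR adjusted p 0.112 and 0.0869). Zfp746 (PARIS), a repressor of the mitochondrial regulator PGC-1α, had 0.17 (0.201). Zfp410, an activator of Chd4, had 20.5, 17.7 and 23.4 CPM in palmitate and 30.5, 27.3 and 20.1 CPM in control (-0.33, 0.196, shared with Ptgr2). Zfp638, which in human cells brings the HUSH silencing complex to unintegrated retroviral DNA, had -0.28 (0.126) and was lower with total counts (-0.40, adjusted p 0.0318). Zfp326 passed without control 2 (adjusted p 0.0438). Values near 0 were found at Zfp644, a partner of the G9a methyltransferase (0.01), and at Zfp106, an RNA-binding protein (-0.09). At an unadjusted p under 0.05 edgeR had 7 of the 19 higher and 1 lower, and DESeq2 called 4 higher and 0 lower.

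Of the 366 Zfp genes 212 had another within 100 kb, in 52 clusters, and 154 were single. A region was found for 145 of the clustered genes (68.4%) and 97 of the single ones (63.0%). The median main region had 28.3 CPM in clustered members and 50.8 CPM in single ones. By library the clustered median was 26.8, 25.8 and 29.5 CPM in palmitate and 28.3, 31.9 and 27.9 CPM in control. The single median was 55.2, 54.4 and 51.4 CPM in palmitate and 47.9, 49.6 and 47.9 CPM in control. Control 2 had the highest clustered median of the 6 libraries. For single genes the palmitate medians all lay above the control ones.

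With palmitate 13 of 145 clustered members were higher and 2 lower (8.97% and 1.38%), and 20 of 97 single members were higher and 3 lower (20.6% and 3.09%). Without palmitate 2 the clustered count was 6 higher and 1 lower and without control 1 it was 8 and 2, and without control 3 or palmitate 1 it had 1 lower. Over the 6 refits without 1 library each, 18 to 23 single members were higher. DESeq2 called 5 clustered and 17 single members higher and 0 and 1 lower, and with total counts 2 and 10 were higher and 7 and 6 lower. In edgeR with TMM 28.2% of other genes' main regions were higher and 1.74% lower, as given above. Those shares do not apply to the other settings. Of 9408 tested gene-end regions 2379 were higher and 234 lower with TMM. In DESeq2 1596 gene-end regions were higher and 62 lower, and with total counts 1071 and 444. The median log2 fold change was 0.04 for clustered and 0.12 for single members, and 0.06 and 0.01 with trended offsets, where 0 clustered and 3 single members were higher and 1 and 2 lower. The order of the medians thus turned with the scaling. Within strength classes 0 of 54 clustered and 0 of 17 single members were higher in the weakest class, 5 of 21 and 8 of 18 in the fourth class, and 4 of 6 and 12 of 17 in the strongest. Of clustered members 37.2% lay in the weakest class, against 17.5% of single ones. The difference between clustered and single genes itself was not tested.

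**Figure D3:**
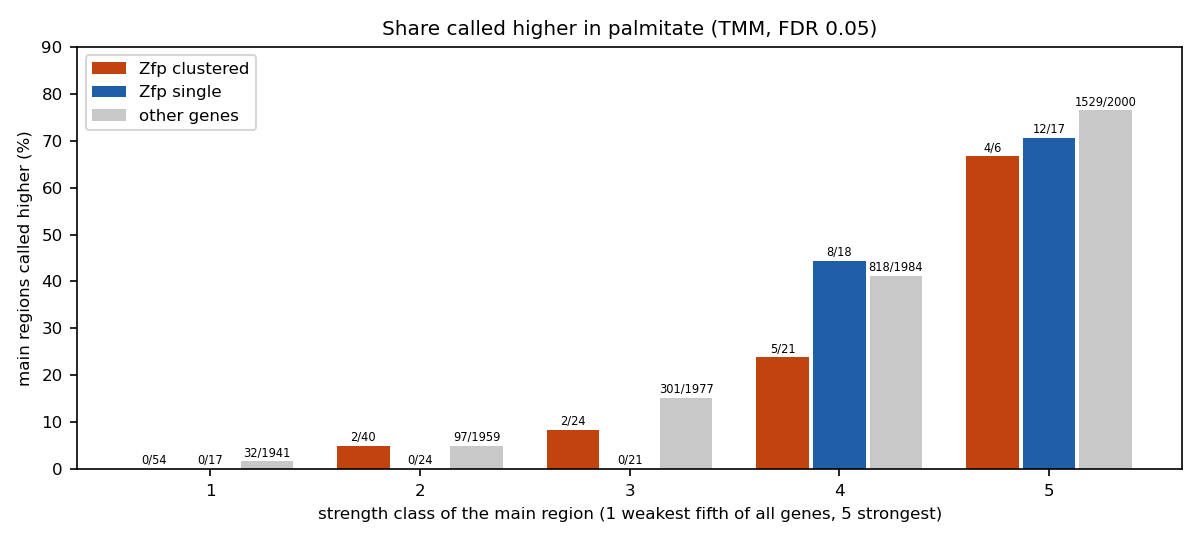
Share of main regions called higher in palmitate (edgeR, TMM, false discovery rate 0.05) in 5 classes of region strength, for clustered Zfp genes, single Zfp genes and other genes; the fraction above each bar is called over tested. In all 3 sets the share is highest in the strongest class, at 4 of 6, 12 of 17 and 1529 of 2000.

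Clusters differed in how many genes had a region at an end. The largest, 15 genes over 401 kb of chromosome 7 (29768552 to 30169775), had a region at 13, with levels from 15.3 to 89.1 CPM. Zfp146, at its edge, had 85.5, 86.0 and 97.0 CPM in palmitate and 74.9, 83.2 and 83.3 CPM in control. The next, 14 genes on chromosome 13 (67038594 to 67553152), had a region at 9, and the third, 13 genes on chromosome 17 (21383707 to 21994366), at 11. Of the genes without one, Zfp790 in the first cluster had a region inside the gene that covered an annotated start. The same held for Zfp708, Zfp759, Zfp458 and Zfp595 in the second and Zfp229 in the third, so these counts are not counts of open starts. In these 3 clusters 0 of 33 members passed in edgeR with TMM or trended offsets, in limma-voom or in DESeq2. Of other genes' main regions 28.2% were higher and 1.74% lower with TMM, and 2.55% and 1.37% with trended offsets. With TMM 1.65% were higher and 5.87% lower in the strength class up to 22.1 CPM. In the next, up to 41.9 CPM, these were 4.95% and 1.79%. Some members of these clusters were stronger, such as Zfp51 in the middle class and Zfp146 in the fourth. There 15.2% and 41.2% of other genes were higher. At an unadjusted p under 0.05 edgeR with TMM had 1 higher and 1 lower among the 33. Median log2 fold changes were 0.09, -0.14 and -0.08. The members nearest to a call were Zfp51 on chromosome 17, with 71.3, 71.0 and 74.0 CPM in palmitate and 51.4, 69.9 and 58.8 CPM in control, and Zfp948, with 13.4, 16.3 and 13.8 CPM in palmitate and 22.7, 17.6 and 20.4 CPM in control. At both the groups did not overlap, and both passed without control 2 (edgeR adjusted p 0.00994 and 0.0453). Zfp51 was also higher with DESeq2 size factors in edgeR (adjusted p 0.0451), and Zfp948 lower with total counts in edgeR (0.0372).

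Further clusters stood at the extremes. A cluster of 10 genes on chromosome 7 (24081877 to 24316698) had a region at an end of 2 genes, Zfp180 being the stronger, and a cluster of 9 on chromosome 4 (147124882 to 147849126) at 1 gene. In the cluster of 10 a region inside Zfp61 also covered an annotated start. In contrast all 6 genes of a cluster on chromosome 7 (4915181 to 5053723) had a region at an end, with 3 higher (Zfp524, Zfp865 and Zfp628, the first shared with Fiz1). A cluster of 6 on the same chromosome (6131489 to 6396637) had such regions at 4 and 2 higher, Zfp78 and Zfp667, and a region over an annotated start inside Zfp787. Of other genes' main regions 28.2% were higher, and with trended offsets 0 members of both clusters were, with Zfp524 and Zfp78 at -0.07 and -0.02 on the log2 scale. Clusters of 10 or more genes held 35 members with 0 higher and 0 lower (edgeR with TMM; 1 and 1 at an unadjusted p under 0.05, 0 and 0 in limma-voom), with Zfp180 lower under trended offsets. Clusters of 5 to 9 genes held 51 members with 9 higher and 0 lower (8 and 0 in limma-voom, 4 and 0 in DESeq2, and 0 and 0 under trended offsets; 11 and 2 at an unadjusted p under 0.05 in edgeR). Clusters of 3 or 4 genes held 30 members with 3 higher and 0 lower, and clusters of 2 held 29 with 1 higher and 2 lower (edgeR with TMM). The share of higher calls thus did not follow cluster size in 1 direction. Clustered Zfp genes have closely similar sequences. The sources used here do not say how reads that map to several places were treated, so levels at near-identical copies are uncertain.

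**Figure D4:**
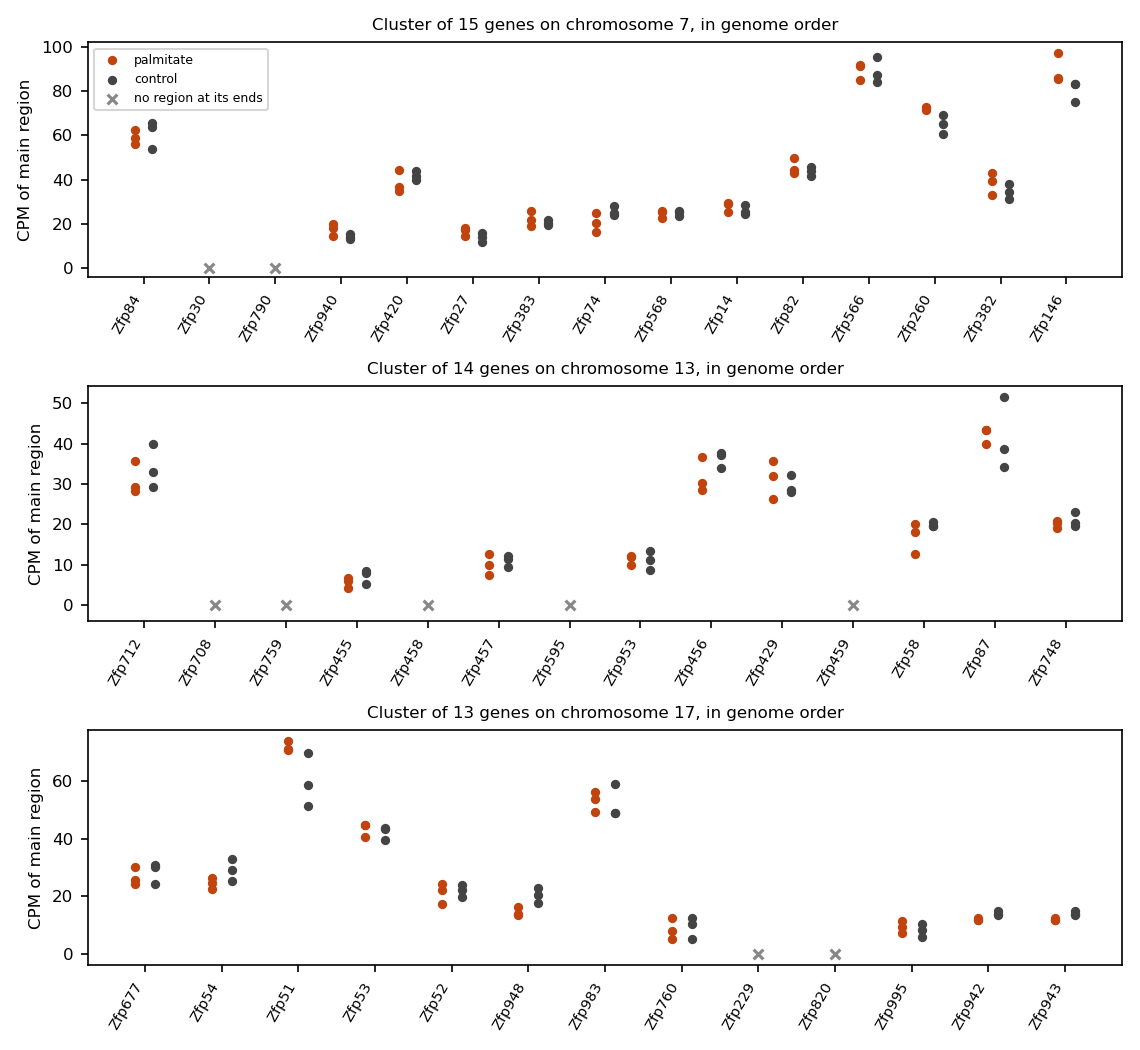
CPM of the main region in each palmitate and control library for every gene of the 3 largest clusters, in genome order; crosses mark genes with no region at their ends. Levels run from 15.3 to 89.1 CPM in the largest cluster, and at Zfp51 and Zfp948 on chromosome 17 the palmitate and control libraries do not overlap.

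Promoter windows of 300 bases (250 before and 50 after the start, RefSeq) were matched for 206 members and for 98 Zfp genes without a region. Members with a region had a median of 15 CpG dinucleotides per window, Zfp genes without one 9.5, and other genes with a region 22. Clustered members had a median of 12 and single members 18, and the 27 higher members with a window had 24. GC boxes (GGGCGG) lay in 47.6% of members' windows, against 68.9% for other genes with a region and 35.7% of all 32851 windows. CCAAT was found in 49.5% of members' windows, against 39.6% and 37.4%, and the ETS letters CCGGAAG in 20.9%, against 20.8% and 8.86%. Zfp genes without a region had CCAAT in 51.0% of windows, the ETS letters in 25.5% and GC boxes in 37.8%. Motifs were sought on both strands. They are descriptions of letters, not of bound factors.

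**Figure D5:**
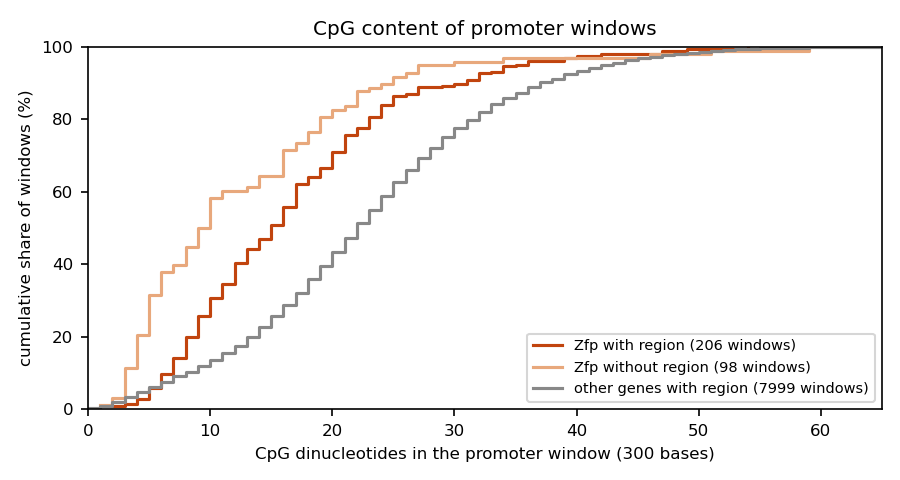
Cumulative share of promoter windows against the number of CpG dinucleotides in 300 bases, for Zfp genes with a region (206 windows), Zfp genes without (98) and other genes with a region (7999). The median is 15 for Zfp genes with a region, 9.5 for Zfp genes without and 22 for other genes, and the curves cross at the ends. Windows are those nearest the main region where there is one, and otherwise the first listed.

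A longer motif, the ZNF143 motif in the form capitalised below, was in 6 members' windows (2.91%) and in 3 windows of Zfp genes without a region (3.06%), against 0.763% of other genes with a region and 0.286% of all windows. The 6 stretches of 29 bases are shown because the motif recurred in this family; capitals mark it on either strand, and all read 5′ to 3′ on the gene strand (GRCm38.p6).
Zfp1 (chr8:111643409-111643437, + strand): ggcattatgGGAATTGTAGTcctacacct
Zfp128 (chr7:12881154-12881182, + strand): ggccttctgGGAATTGTAGTctcagtgtc
Zfp180 (chr7:24081866-24081894, + strand): agagttctgGGAATTGTAGTtccattgag
Zfp58 (chr13:67500533-67500561, - strand): agacttgtgGGAATTGTAGTctggccact
Zfp692 (chr11:58307012-58307040, + strand): ctaaggctaACTACAATTCCcggcaggct
Zfp933 (chr4:147848431-147848459, - strand): ttccaaagaACTACAATTCCcagcattcc
Of these 6 members 0 were called in edgeR with TMM, in limma-voom or in DESeq2, and Zfp180 was lower under trended offsets (other genes' main regions 28.2% higher and 1.74% lower with TMM, 2.55% and 1.37% trended). At an unadjusted p under 0.05 edgeR had 1 higher, Zfp128 (log2 fold change 0.29, edgeR adjusted p 0.0841), and 1 lower. Zfp143 itself, the mouse gene of the factor, had no region at its ends.

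Elements inside the Zfp genes were lower more than higher by count. Away from gene ends 102 regions inside Zfp genes were tested, of which 9 were higher (8.82%) and 12 lower (11.8%), against 4.26% and 19.8% of regions inside other genes. The 102 include the 16 regions over annotated starts described above, of which 3 were higher (Zfp787, Zfp821 and Zfp46) and 0 lower. Starts were not separated among the regions inside other genes either. The 12 lower ones lay in 6 genes: 4 in Zfp827, which in human cells brings the NuRD complex to telomeres, 3 in Zfp407, 2 in Zfp608, a repressor of the Rag genes in thymocytes, and 1 each in Zfp521, Zfp148 and Zfp469. The Zfp827 element with the smallest p (chromosome 8, 79150616 to 79151067) had 7.76 ± 1.72 CPM in palmitate and 21.0 ± 5.07 CPM in control (SD, n = 3 each). Its log2 ratio was -1.46 ± 0.25 (SE, adjusted p in edgeR 4.06e-05) and -1.21 with trended offsets (0.00202). At Zfp148 the gene end was higher and the element inside (chromosome 16, 33400158 to 33400650) lower, at 20.2 ± 0.810 CPM in palmitate and 28.5 ± 3.02 CPM in control (log2 fold change -0.50 ± 0.17 SE, adjusted p in edgeR 0.0291), and neither passed with trended offsets.

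Several of the 9 higher inside elements were strong, as at Zfp574 (305 ± 17.5 CPM in palmitate and 238 ± 20.3 CPM in control, log2 fold change 0.36). With trended offsets 3 inside elements were higher and 1 lower, beside 2.02% and 5.81% of regions inside other genes. The higher ones were in Zfp831 (trended log2 fold change 1.23, adjusted p 0.0104), Zfp592 (0.84, 0.0250) and Zfp65 (1.07, 0.0262), all weak, with palmitate means of 10.8, 15.5 and 9.69 CPM and control means of 6, 10.2 and 5.99 CPM. Of 15 members with a second gene-end row, Zfp609 and Zfp286 had a lower one. That is 2 of 14 distinct rows (14.3%), with 0 higher, beside 12.8% lower of all tested regions. Of the 9408 tested gene-end regions, the nearer comparison, 234 were lower and 2379 higher. The second row of Zfp286 did not pass with trended offsets (adjusted p 0.342). The main regions of Zfp609 and Zfp286 were not called (log2 fold changes 0.28 and 0.20). The second row of Zfp609, a gene related to Zfp608, had 9.37 ± 0.945 CPM in palmitate and 21.9 ± 2.26 CPM in control (chromosome 9, 65826385 to 65826923; log2 fold change -1.21 ± 0.22 SE, adjusted p in edgeR 0.000114; trended -1, 0.00474).

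The partners of KRAB zinc finger proteins had strong gene ends. Of 39 symbols listed 38 matched a gene and 30 had a region, at a median of 108 CPM. In edgeR 18 of the 30 were higher and 0 lower (12 did not pass), with 3 higher under trended offsets. Other genes' main regions were called higher in 28.2% with TMM, and in 41.2% of the fourth strength class, in which the partners' median lies, and 76.5% of the strongest. With trended offsets 2.55% of other genes' main regions were higher. With total counts 9 partners were higher. Trim28, the corepressor that KRAB domains bind, had 139 ± 8.23 CPM in palmitate and 103 ± 5.23 CPM in control (SD, n = 3 each; log2 fold change 0.43 ± 0.08 SE, adjusted p in edgeR 0.000129; trended 0.21, 0.0893; a region shared with Gm31649). Setdb1, the methyltransferase it recruits, had 23.6 ± 1.88 CPM in palmitate and 20.6 ± 3.43 CPM in control (0.20 ± 0.18 SE, adjusted p 0.453). Among HP1 genes Cbx3 (0.41) and Cbx5 (0.23) were higher and Cbx1 (0.08) did not pass. The regions of Cbx3 and Cbx5 were shared with the ends of Hnrnpa2b1 and Hnrnpa1, so they cannot be assigned to 1 gene. The 3 that passed with trended offsets were Daxx, a histone chaperone (0.20, adjusted p 0.0422), Morc2a, a HUSH-linked ATPase (0.26, 0.0425), and Atf7ip, a stabiliser of Setdb1 (0.27, 0.0488). NuRD subunits among the higher ones were Gatad2b (0.49), Gatad2a (0.33), Rbbp4 (0.37, shared with Zbtb8os), Rbbp7 (0.31), Chd4 (0.30), Hdac1 (0.28) and Hdac2 (0.25). The NuRD subunits Mta2 (0.19, adjusted p 0.106 in edgeR, shared with Eml3) and Mta3 (-0.01, 0.979) did not pass, and with trended offsets none of these 9 did.

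Other zinc finger families were set beside the Zfp genes by symbol. Zbtb genes, with a BTB domain, had 11 higher (35.5%) and 0 lower of 31 main regions at a median of 82.5 CPM. The shares of other genes' main regions were 28.2% and 1.74%, and 41.2% were higher in the fourth strength class, in which that median lies. Zkscan and Zscan genes, many with SCAN domains, had 0 called of 19 in edgeR, limma-voom and DESeq2 (2 higher and 0 lower at an unadjusted p under 0.05 in edgeR) at a median of 25.5 CPM. Their groups were apart with palmitate above at 1 gene and below at 1 (39.3% and 5.43% of other genes' main regions). In the second strength class, in which the median of 25.5 CPM lies, 4.95% of other genes' main regions were higher and 1.79% lower with TMM. Zc3h genes, whose fingers bind RNA, had 2 higher and 0 lower of 17 at a median of 54.3 CPM. In the middle class, in which that median lies, 15.2% of other genes' main regions were higher and 0.607% lower. With trended offsets 1 Zbtb gene and 0 of the others were called, beside 2.55% higher and 1.37% lower of other genes' main regions. No protein sequences were used here, so which members carry a KRAB domain was not determined, and "repressor" is not shown for each member.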

How the data were processed

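ATAC-seq of 6 libraries was analysed. The authors' deposited matrix holds raw counts per region, and their deposited peak lists hold a score per peak, used only to count the lists in which a region was called. Per the submitters' processing notes the tools named are MACS2 2.2.8, Bowtie2 2.5.1, edgeR 3.40.2, Picard 2.23.8 and Trim Galore 0.6.10, on the build mm10. The sources used here do not describe the Tn5 shift, the merging of peaks or the counting. A gene with no row in the matrix has no level here, which is not a level of 0.

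Of 24605 regions 289 were removed by filterByExpr. The edgeR quasi-likelihood test (edgeR 4.0.16, R 4.3.3; robust, two-sided, TMM) was fitted to all 24316 remaining regions with Benjamini-Hochberg adjustment. The SE came from the size of the log2 fold change over the root of the F statistic. CPM uses TMM library sizes. Trended offsets come from a loess fit per library of log counts (0.5 added) on mean abundance, with a span of 0.3. DESeq2 1.42.0 and limma 3.58.1 (voom) were alternatives. The fits were tested on simulated data. Lists are described by counts and medians, without set tests. Region coordinates are as the matrix gives them. Members, lists and the rule for named genes (smallest p, strongest and weakest, known role, 3 largest clusters) were chosen with earlier results of these data known, and the elements inside genes and promoter motifs were added later.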

Additional observations from a re-analysis of the deposited data

How the results depend on the processing

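Over the 6 refits that left out 1 library each, Zfp members called higher numbered 24 to 35 (33 with all libraries) and lower 3 to 6 (5), with a median log2 fold change of 0.07 to 0.09 (0.07). Clustered members were 6 to 12 higher and 1 to 3 lower (13 and 2), single members 18 to 23 and 2 to 3 (20 and 3), KRAB partners 14 to 16 higher (18), and all gene-end regions 1752 to 2196 higher and 126 to 268 lower (2379 and 234). Under trended offsets 3 members were higher and 3 lower (median 0.03), clustered 0 and 1, single 3 higher, partners 3 higher, and gene-end regions 252 and 135; the log2 fold changes of Zfp78 (-0.02), Zfp367 (-0.10), Zfp524 (-0.07) and Zfp687 (-0.20) reversed. Under total counts these were 12 and 13 (median -0.05), clustered 2 and 7, single 10 and 6, partners 9, and gene-end regions 1071 and 444. In the DESeq2 Wald test 1 member was lower (median 0.10), clustered 5 higher and 0 lower, single 1 lower, and gene-end regions 62 lower. DESeq2 size factors gave a median of 0.10 and 1 clustered lower, upper-quartile factors a median of 0.01 and 5 clustered higher, and at least 20 reads in 3 libraries a median of 0.04 and 8 clustered higher. At a false discovery rate of 0.1, 9 members, 5 clustered members and 364 gene-end regions were lower. Among main regions in all 6 lists 2 members, 1 clustered, 1 single and 94 gene-end regions were lower (median 0.08). At no other gene end the median was 0.04 with 11 single higher, and at a cluster distance of 50 kb 1 clustered member was lower. The causes were not tested. Weak regions have few counts, which limits what could be detected there.

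Same-numbered palmitate and control libraries did not deviate together (correlations 0.000431, -0.105 and -0.0269). Counting noise in single regions can hide a shared source, so these values do not settle whether the libraries were paired. With a replicate block 31 members were higher and 4 lower, with 1 clustered lower, and Zfp825 no longer passed (adjusted p 0.0503).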
